A study of Mus musculus with 2 samples.

Results

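Conventional CD4 T cells of 2 libraries from subcutaneous fibrosarcomas are described here. These were cells with T cell receptor chains and Cd4 but with neither Foxp3, the factor that defines regulatory T cells, nor Cd8. Members were selected on their own counts of unique molecular identifiers (UMIs, molecules counted after removal of PCR copies). Each held at least 2 UMIs of Cd3d, Cd3e and Cd3g together, at least 1 UMI of Cd4, and 0 of Foxp3, Cd8a and Cd8b1, and the macrophage genes C1qa, C1qb and C1qc made up under 0.1% of its UMIs. The rule found 375 members among 20602 cells that passed the quality limits, namely 157 of 8985 where the title says Control and 218 of 11617 where it says Blood.

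The fibrosarcomas, tumours of connective tissue grown from implanted syngeneic cells, were taken from C57BL/6 mice of wild-type genotype, and the study set injection of the animals' own red cells in buffered saline against injection of saline. Tumours of both groups were cut up and dissociated with the enzymes collagenase B and DNase I for 45 min at 37 °C, then passed through a filter and freed of red cells by lysis, and the number of animals behind a library is not given in the sources used here. The treatment labels contradict the titles: the library titled Control is labelled as injected with erythrocytes and the library titled Blood as injected with PBS. Libraries are therefore named by their titles, which library received erythrocytes is unsettled, so higher or lower here refers to titles alone, and with 1 library per group no test of a difference was possible, so all intervals are exact 95% intervals that cover counting error only.

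Conventional CD4 T cells are the helper cells of adaptive immunity. They recognise peptides on MHC class II and act on other cells through surface ligands such as CD40 ligand and through cytokines, which sort them into type 1 cells that make interferon gamma, type 2 cells that make interleukins 4, 5 and 13, interleukin 17 producers and follicular helpers. In tumours they license dendritic cells and macrophages, supply cytokines to CD8 T cells, and are held in check by regulatory T cells that carry the same co-receptor.

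The share of members among kept cells was 1.75% (1.49% to 2.04%) titled Control and 1.88% (1.64% to 2.14%) titled Blood. The ratio was 1.07, and its interval of 0.871 to 1.33 includes 1. Members were 13.5% of 1159 and 14.3% of 1525 cells that passed the Cd3 and C1q limits. Counted with the Foxp3-positive T cells alone, they were 49.5% (43.9% to 55.2%) of 317 and 52.3% (47.4% to 57.2%) of 417 cells. The gates thus held about equally many cells in either library. Members needed a Cd4 UMI and Foxp3-positive cells did not, so these counts do not measure the ratio of the cell types. The median member carried 5029 and 5154 UMIs from 1865 and 1912 genes, with 3.16% and 2.87% mitochondrial UMIs, and their summed counts came to 953141 and 1224461 UMIs. In a digested tumour, a share of cells reflects both how many cells were there and how many survived preparation.

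Barcodes found in both libraries were looked for before any comparison. There were 349, and 324 of them differed more than 10-fold in UMIs between the libraries. They touched 2 members titled Control and 1 titled Blood. The member with the most UMIs carried 91496, or 9.60% of all member UMIs of the library titled Control, where the next highest held 24066, and the same barcode had 1762 UMIs in the other library. That cell had 11 UMIs of the 3 Cd3 chains and 1 of Cd4, beside 125 of Nppb, a natriuretic peptide, 106 of the tropomyosin Tpm2, 43 of Sparc, 32 of Col1a2 and 1120 of S100a6, and Scrublet did not mark it as a doublet (it marked 1 and 5 members). The other pairs had 8811 UMIs titled Control against 7748, and 28357 titled Blood against 526. Results below are given for all members and, where the difference matters, without these 3 cells.

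The label was checked against its markers. Cd3e (chr9:44998740-45009627 of GRCm38, a chain of the receptor complex) stood at 445 and 532 CPM (a gene's UMIs over all UMIs, summed over members, times 1000000) in the libraries titled Control and Blood. Cd4 (chr6:124864692-124888221), the co-receptor for MHC class II, stood at 561 and 686 CPM. The rule chose the cells on these genes, so their levels are a description. Cd40lg (chrX:57212143-57224042), which encodes CD40 ligand, and Icos (chr1:60977927-61000320), an inducible costimulatory receptor, were not used by the rule. When every cell with at least 2000 UMIs was thinned to 2000, which left out 8 and 6 members, Cd40lg was found in 22.1% (33 of 149 cells) and 21.7% (46 of 212), against at most 0.521% of Foxp3-positive cells, 1.08% of CD8 T cells and 2.82% of T cells with neither Cd4 nor Cd8 UMIs, and in 0 of the macrophage-gated cells. Without thinning, 35.7% and 40.8% of members had a Cd40lg UMI. Icos was found in 69.1% and 71.7% of thinned members, above the 44.3% and 61.0% of CD8 T cells and below the 91.5% and 90.1% of Foxp3-positive cells. The markers fit a helper T cell label, with Cd40lg the sharper of the pair.

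**Figure D1:**
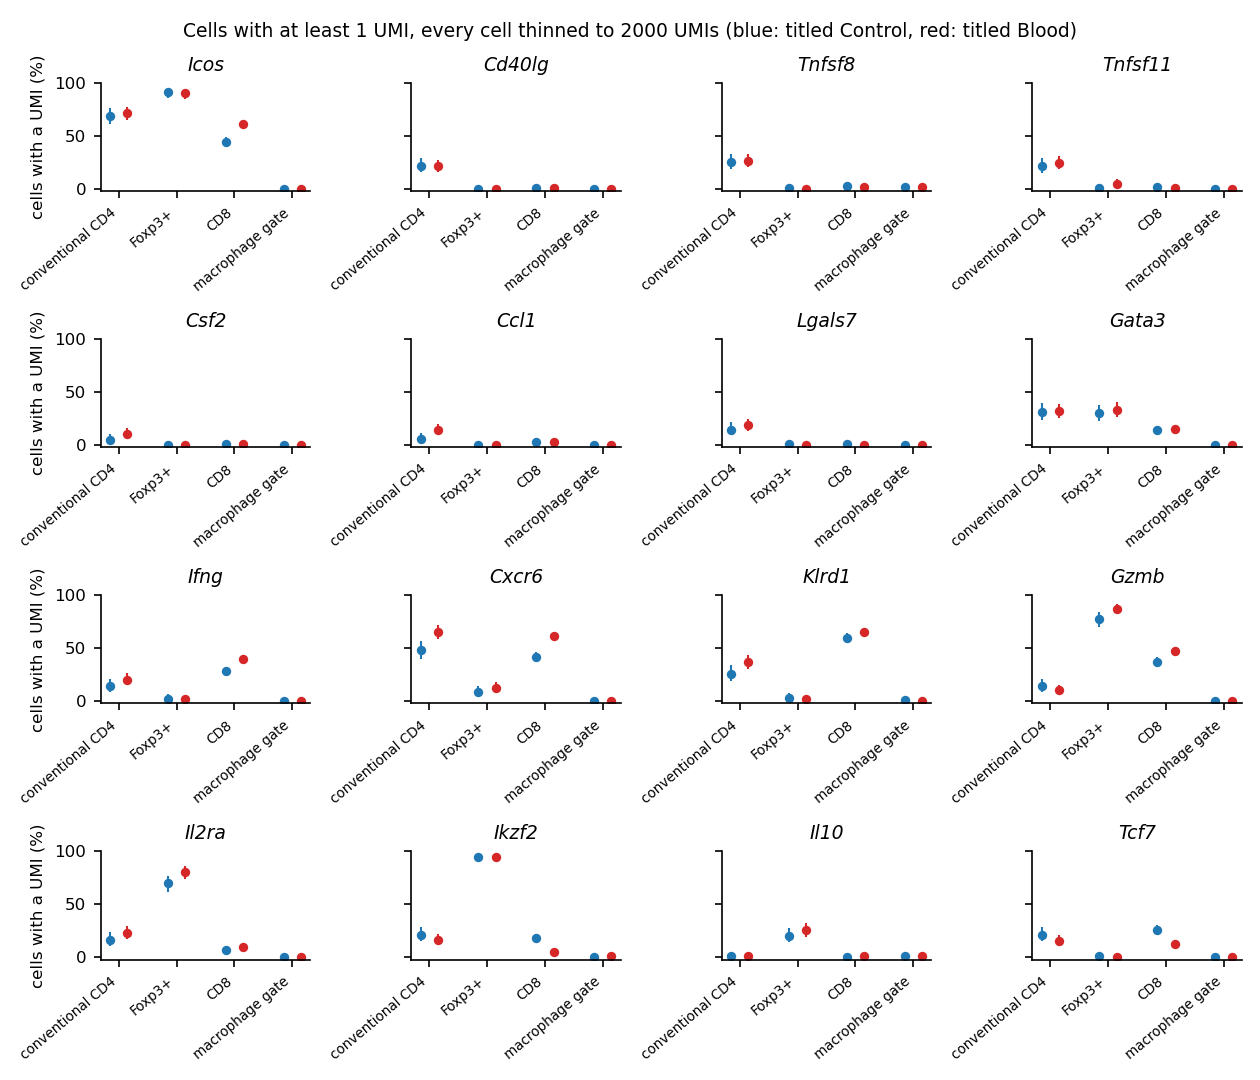
Percentage of cells with at least 1 UMI of each gene (vertical axis) in conventional CD4 T cells, Foxp3-positive T cells, CD8 T cells and C1q-high macrophage-gated cells, every cell thinned to 2000 UMIs; points are the libraries (blue titled Control, red titled Blood) and bars are exact 95% intervals for counting error. Of the gates drawn, Cd40lg, Tnfsf8, Tnfsf11, Csf2 and Lgals7 are seen mainly in the conventional CD4 T cells, where Cd40lg reaches 22.1% and 21.7%. Gzmb, Il2ra and Ikzf2 are highest in the Foxp3-positive cells.

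Cells just inside and just outside the limits were as follows. Members with exactly 1 Cd4 UMI (42 and 43 cells) had 62.7 and 116 CPM of Cd40lg, and the T cells with 0 Cd4 UMIs (364 and 306 cells) had 12.6 and 21.1 CPM. Members with C1q at 0.05% to 0.1% of UMIs (16 and 26 cells) had 189 and 291 CPM of the myeloid gene Lyz2, and cells at 0.1% to 0.2% (7 and 7 cells) had 803 and 2748 CPM. Cells with a single Foxp3 UMI (10 and 13) had 1389.9 and 1917 CPM of Ikzf2, a transcription factor of regulatory T cells, which stood at 257 and 120.1 CPM in members.

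Transcripts of other cell classes were low in members but not absent. The 12 macrophage markers summed to 1059 and 1429 CPM, against 40608 and 39935 CPM in the macrophage gate, with all 12 detected in both libraries. The 4 MHC class II genes summed to 1699.6 and 668 CPM, of which 69.3% and 38.5% lay in a single cell. The neutrophil list summed to 130.1 and 175 CPM and the mesenchymal list to 153 and 7.35 CPM, 92.5% of the former in the cell of 91496 UMIs. Erythroid genes had 0 UMIs in both libraries, the mast cell and basophil genes 0 and 1 UMI, and Ms4a1, Siglech and Clec9a had 0. Trdc, a chain of gamma-delta T cells, had 0 and 23 UMIs, the latter in 5 cells, and Zbtb16, the factor of innate-like T cells, 1 and 0. Both T cell receptor beta constant regions were well covered: 94 and 124 members held UMIs of Trbc1 and Trbc2, 5 and 2 of neither, and reads can be shared between these near-identical genes.

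Several helper ligands were higher in members than in Foxp3-positive and CD8 T cells of the same tumours. With no replicate libraries the gates could not be tested against each other, so levels are given side by side. Tnfsf8, the ligand of CD30, was at 382 and 474 CPM in members, 9.02 and 0.870 CPM in Foxp3-positive cells and 17.3 and 13.2 CPM in CD8 T cells. Tnfsf11, which encodes RANK ligand, was at 177 and 180.5 CPM, against 11.03 and 13.9 CPM and 12.2 and 10.8 CPM. Cd40lg was at 114 and 158 CPM, against 5.01 and 1.74 CPM and 1.92 and 6.93 CPM. These ligands were spread over many cells: Cd40lg UMIs were found in 56 of 157 and 89 of 218 members, and no cell held more than 7.34% of the Cd40lg UMIs of a library. Of thinned members with a Cd40lg UMI, 10 of 33 and 16 of 46 also had one of Tnfsf8, near the 28 of 116 and 40 of 166 among the others. Between libraries the log2 ratio of Cd40lg was 0.45, and -0.02 without the members with Il2ra and Ikzf2 UMIs.

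Further genes that the fixed rule named against both other gates were Lgals7, a galectin, Il13 and Il4. Lgals7 was at 218 and 254 CPM in members, 15.04 and 3.48 CPM in Foxp3-positive cells and 2.24 and 2.60 CPM in CD8 T cells. Serpinb1a, a serine protease inhibitor, was at 113 and 142 CPM against 6.02 and 9.57 CPM and 5.12 and 23.0 CPM. Tbc1d4, a regulator of glucose transporter traffic, was at 164 and 102 CPM against 12.03 and 2.61 CPM and 18.9 and 17.8 CPM. Other genes separated the members from only one of the gates. Tcf7, a factor of naive and memory cells, was at 146 and 74.3 CPM in members and at 10.0 and 2.61 CPM in Foxp3-positive cells, but at 161 and 81.5 CPM in CD8 T cells. Tnfrsf4, which encodes OX40, was at 595 and 822 CPM in members, above the 54.4 and 47.2 CPM of CD8 T cells and below the 2811 and 2629 CPM of Foxp3-positive cells. Penk, the enkephalin precursor, was at 255 and 292 CPM, against 135 and 159 CPM in Foxp3-positive and 5.12 and 1.73 CPM in CD8 T cells. Areg, an epidermal growth factor-like ligand, was at 305 and 219 CPM, below the 659 and 626 CPM of Foxp3-positive cells and above the 14.7 and 9.54 CPM of CD8 T cells.

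Foxp3 is a lowly counted transcript that single-cell libraries can miss, so members with UMIs of both Il2ra, the interleukin 2 receptor alpha chain, and Ikzf2 were looked at apart. They were 20 members (12.7%) titled Control and 26 (11.9%) titled Blood. The group titled Control included the cell of 91496 UMIs, which made up a large part of its 194189 UMIs. Gzmb, which encodes granzyme B, was at 1087 and 438 CPM in these members and at 235 and 102 CPM in the others, against 3246 and 3082 CPM in Foxp3-positive cells. Il10 was at 87.5 and 19.9 CPM in them and at 2.64 and 1.86 CPM in the others. Cd40lg had 0 UMIs in the 20 cells titled Control, for an upper limit of 15.4 CPM, and 278.9 CPM in the 26 cells titled Blood. Ifng was at 82.4 and 1461 CPM in these members and at 145 and 207 CPM in the others, and Tnfsf8 at 20.6 and 883 CPM and at 474 and 416 CPM. Tnfsf8 was thus lower in them than in the others titled Control and higher titled Blood. The summed Ifng level was higher in them titled Blood, but the cells with the most held 99 and 75 of the 442 Ifng UMIs of that library. After thinning, 0 of the 11 members titled Blood with UMIs of both Il2ra and Ikzf2 had an Ifng UMI, against 43 of all 212. That level is therefore not read as a direction per cell. Titled Control, the Ifng level of members with both rested on 16 UMIs, over a sum of which the 1 cell gave 91496. That library held 126 Ifng UMIs with and 125 without the shared-barcode members, so no direction of Ifng is read there. Foxp3-positive cells held 14.04 and 17.4 CPM of Ifng.

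The comparison of the libraries summed UMIs over members and took the log2 ratio of CPM plus 5, titled Blood over titled Control. The filter asked for 10 CPM or more in one of the libraries and 20 UMIs or more over both. Of 7858 genes that passed, 464 (5.90%) were at least 1.5-fold higher in the library titled Blood and 668 (8.50%) at least 1.5-fold lower, and the median log2 ratio was -0.02. Without the 3 shared-barcode members, 518 of 7608 genes (6.81%) were higher and 505 (6.64%) lower, so the excess of lower genes was not seen without them. A count past 1.5-fold is a description of these libraries and not a count of changed genes. Gene lists of T cell biology were read against these shares. Interferon-stimulated genes were the list farthest from 0, at a median of -1.06, and activation genes lay at the other end, at 0.54.

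**Figure D2:**
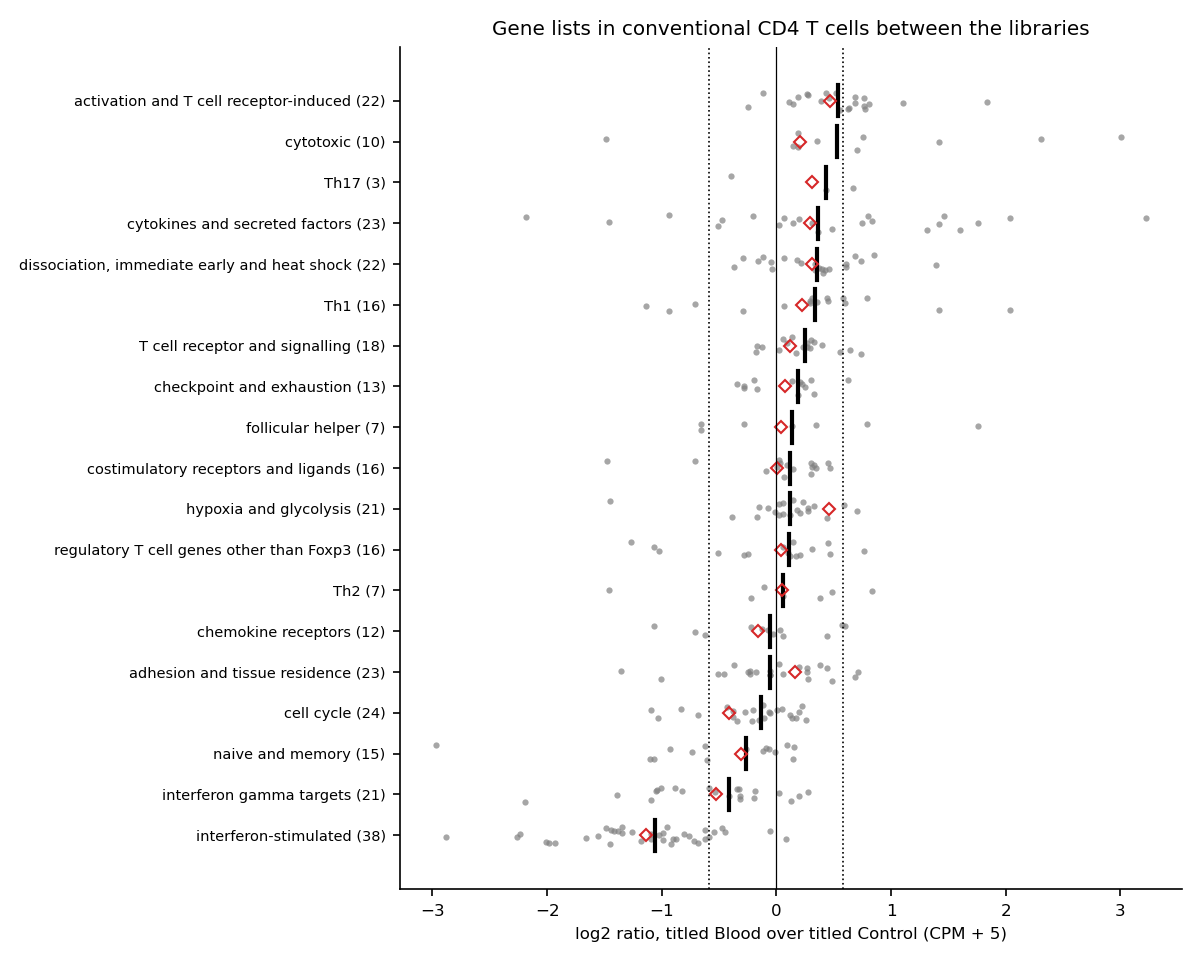
Log2 ratios of members, titled Blood over titled Control (horizontal axis, CPM plus 5), for the genes of 19 lists, with the number of genes past the filter in brackets. Grey points are genes, black bars list medians over all members, open red diamonds medians without the members whose barcode is in both libraries, and dotted lines mark 1.5-fold. The interferon-stimulated list lies lowest at -1.06, with a diamond at -1.14, and the activation list highest at 0.54, with a diamond at 0.47.

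Interferon-stimulated genes encode antiviral effectors and sensors that cells switch on when interferons engage their receptors and a complex of transcription factors then binds DNA. Of 43 listed genes 38 passed the filter. Of these, 33 were at least 1.5-fold lower in the library titled Blood and 0 higher (8.50% and 5.90% over all genes tested). Ifit3, an interferon-induced protein with tetratricopeptide repeats, was at 110.2 CPM (90.1 to 133; 105 UMIs in 31 of 157 cells) titled Control and at 10.6 CPM (5.65 to 18.2; 13 UMIs in 10 of 218 cells) titled Blood. Ifit3 thus had a ratio of 0.0964 (0.0497 to 0.172). Ifit1, of the same family, was at 165 CPM (42 cells) and 31.0 CPM (12 cells), a ratio of 0.188 (0.129 to 0.270). Isg15, a ubiquitin-like modifier, was at 296 CPM (262 to 332; 58 cells) and 71.1 CPM (56.9 to 87.6; 37 cells), and the ratio was 0.240 (0.187 to 0.306). These 3 genes were named for their low ratios in this same comparison, so the lack of overlap of their intervals follows from the choice. The order held without the shared-barcode members, at log2 ratios of -2.97, -2.25 and -1.95.

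The list also holds transcription factors, sensors and membrane proteins. Irf7, the factor that amplifies type I interferon, was at 115.4 and 39.2 CPM. Ddx58, which encodes the RNA sensor RIG-I, was at 104 and 29.4 CPM, and Zbp1, a nucleic acid sensor, at 139.5 and 62.9 CPM. Bst2, the tether of budding virions, was at 296 and 105 CPM, with 26.6% of the former in 1 cell. Usp18, which removes Isg15 from proteins, was at 50.4 and 6.53 CPM and Rsad2, which encodes viperin, at 74.5 and 14.7 CPM. The genes with the highest counts stayed within 1.5-fold. Ifi27l2a was lower titled Blood, at 3152 and 2309 CPM (log2 ratio -0.45, and -0.53 without the shared-barcode members), and near level were Ly6e at 1027 and 986 CPM (-0.06) and Ly6a at 1185 and 1258 CPM (0.09). Members of the Ifit and Ifi families resemble one another, and counts at the transcript end can be split or lost between them.

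**Figure D3:**
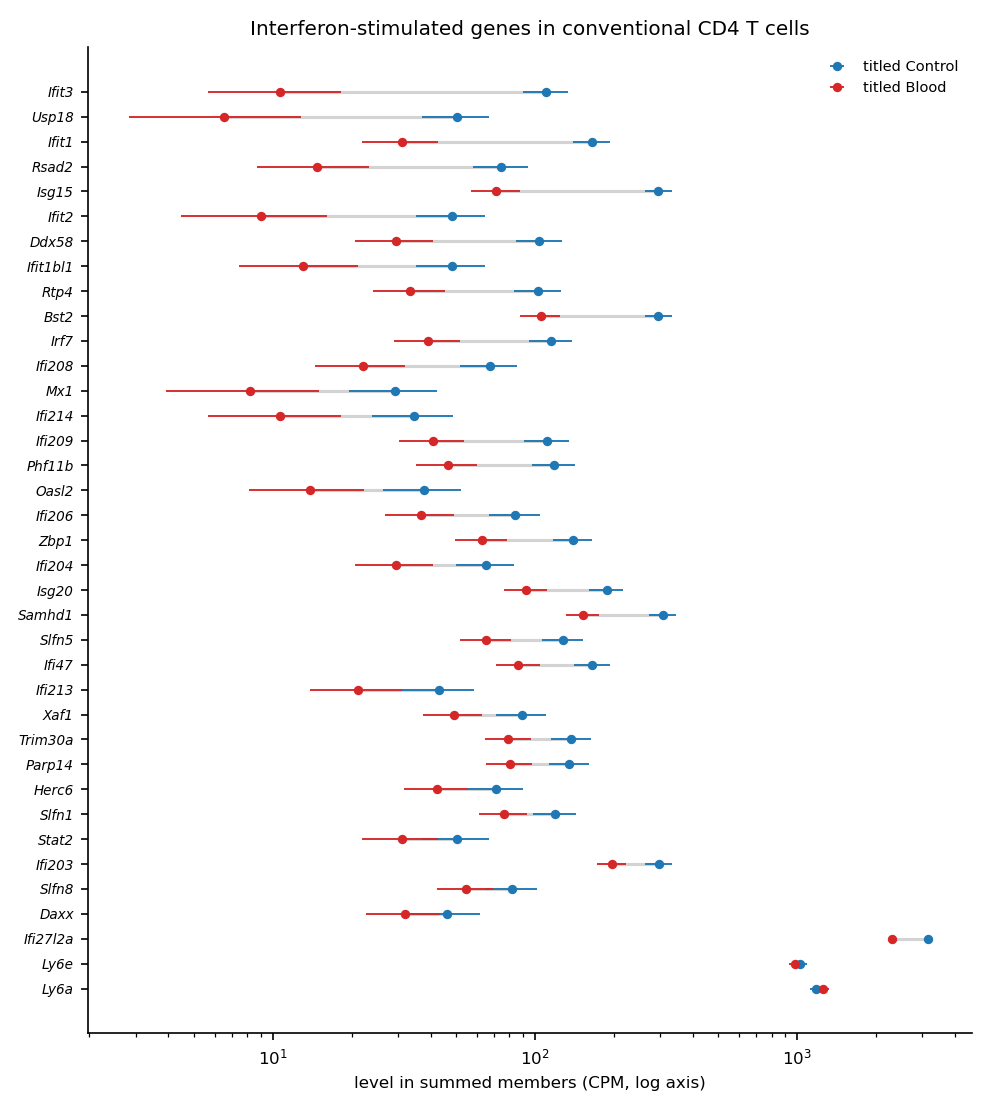
Level of 37 interferon-stimulated genes past the filter in the summed members of each library (horizontal axis, CPM on a log scale), ordered by their ratio; points are the libraries (blue titled Control, red titled Blood), bars exact 95% Poisson intervals and grey lines join the 2 values of a gene. Ifit3 lies at 110.2 and 10.6 CPM, and Ly6a and Ly6e, with log2 ratios of 0.09 and -0.06, hardly differ.

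The difference was spread over many cells. Without the 3 highly counted genes Ifi27l2a, Ly6a and Ly6e, a thinned member of the library titled Control held a median of 6 UMIs of the list (25th to 75th percentile 2 to 12) and one of the library titled Blood 3 (1 to 5). At least 10 UMIs were held by 51 of 149 cells (34.2%) and 16 of 212 cells (7.55%), and the maximum was 87 and 26 UMIs. Isg15 was found in 28.2% (21.1% to 36.1%) and 7.55% (4.38% to 11.97%) of thinned members and in 36.9% and 17.0% of all members. Leaving out, for each gene and library, the member with the most UMIs gave a list median of -1.01. It was -1.10 in members with 0 C1q UMIs (58 and 92 cells).

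Other cells of the tumours gave the following values. The list median was -0.32 in Foxp3-positive T cells, with 6 of 41 genes at least 1.5-fold lower (background 3.89%), -0.23 in CD8 T cells, with 6 of 41 (2.80%), and -0.49 in T cells with neither Cd4 nor Cd8 UMIs, with 14 of 41 (2.92%). Whether these gates differ from the members could not be tested with 1 library per group. Isg15 was found in 30.1% and 28.6% of thinned Foxp3-positive cells and in 19.0% and 17.2% of CD8 T cells, so members titled Control lay near the former and members titled Blood below both. Macrophage-gated cells held 260.0 and 119 CPM of Isg15, and 26.4% and 14.3% of them had an Isg15 UMI after thinning, so they give no estimate of free Isg15 RNA. The part of macrophage RNA in the Isg15 of members was not tested.

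Genes induced by interferon gamma formed a separate list with no gene in common. Of 21 past the filter, 9 were at least 1.5-fold lower titled Blood and 0 higher (8.50% and 5.90% over all genes tested), with a median of -0.41. Igtp, a GTPase that acts on pathogen vacuoles, was at 187 and 90.7 CPM, Irgm1 at 90.2 and 46.6 CPM and Iigp1 at 51.4 and 7.35 CPM. Of the antigen presentation genes of the list, the immunoproteasome subunit Psmb10 was at 189 and 124 CPM, just past 1.5-fold, Psmb9 at 307 and 267 CPM, Psmb8 at 721 and 631 CPM, the peptide transporter Tap1 at 260.2 and 208 CPM and B2m at 2856 and 2895 CPM. Ifng itself was higher in the members of the library titled Blood, as given below.

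The promoters of Ifit3, Ifit1 and Isg15, the 3 genes of the list with the lowest ratios among those with at least 50 CPM in a library and 100 UMIs in both together, are shown because their interferon-stimulated response elements are known control sites. The 200 bases before the start of each gene are printed 5′ to 3′ on the gene's strand from RefSeq promoters of GRCm38.p6, with the bases of each match in capitals: GAAA, any 2 bases and GAAA, or TTTC, any 2 bases and TTTC for the other strand. The windows are chr19:34583329-34583528 (plus strand) for Ifit3, chr19:34640689-34640888 (plus strand) for Ifit1 and chr4:156200819-156201018 (minus strand) for Isg15.
Ifit3: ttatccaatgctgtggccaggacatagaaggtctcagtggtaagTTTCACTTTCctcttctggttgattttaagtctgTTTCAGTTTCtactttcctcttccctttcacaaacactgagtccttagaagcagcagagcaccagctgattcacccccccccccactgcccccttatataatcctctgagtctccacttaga
Ifit1: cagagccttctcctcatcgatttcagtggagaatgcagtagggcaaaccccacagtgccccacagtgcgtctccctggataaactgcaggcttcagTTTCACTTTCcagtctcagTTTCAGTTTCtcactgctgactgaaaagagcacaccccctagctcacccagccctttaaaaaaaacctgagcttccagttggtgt
Isg15: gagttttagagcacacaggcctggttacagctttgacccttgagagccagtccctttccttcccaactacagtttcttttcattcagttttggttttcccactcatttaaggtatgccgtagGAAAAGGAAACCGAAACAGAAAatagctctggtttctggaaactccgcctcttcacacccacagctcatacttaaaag
Ifit3 and Ifit1 each held 2 matches, beginning 156 and 122 and 104 and 85 bases before the start, and Isg15 held 3 that overlap, beginning 78, 72 and 66 bases before it. Of the 33 genes at least 1.5-fold lower, 26 had an entry in the promoter table and 16 of these (61.5%) held the letters within its 300 bases, against 1079 of all 27025 genes (3.99%). Of all 38 tested genes of the list, 28 had an entry and 17 (60.7%) held the letters. The share is thus that of the list and not particular to the lower genes. Among activation genes 1 of 15 (6.67%) held them. A match is a description of the letters and not of binding, and the list was drawn up from genes known for this control.

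Activation genes differed in the other direction. They are genes switched on by the T cell receptor within hours. Of 22 past the filter, 10 were at least 1.5-fold higher titled Blood and 0 lower (7 and 0 without the shared-barcode members), with a median of 0.54. Over all genes tested 5.90% were higher and 8.50% lower, and without those members 6.81% and 6.64%. Medians of this list were 0.47 in CD8 T cells, 0.45 in Cd4- and Cd8-negative T cells and -0.10 in Foxp3-positive T cells. Cd69, an early activation antigen that holds cells in tissue, was at 434 and 702 CPM, a log2 ratio of 0.69 that came to 0.05 when cells were thinned before gating and to under 1.5-fold in members with at least 2 Cd4 UMIs (0.42). Nr4a1, a nuclear receptor that reports receptor signals, was at 173 and 297 CPM and was found in 20.1% (14.0% to 27.5%) and 37.7% (31.2% to 44.6%) of thinned members. Its relative Nr4a3 was at 73.4 and 163 CPM. Egr1 was at 294 and 517 CPM and Egr3 at 25.2 and 103 CPM, both zinc finger factors of the receptor response, and the log2 ratio of Egr1 ranged from 0.34 to 1.17 over the alternatives. Bhlhe40, a factor of cytokine-producing helper cells, was at 532 and 782 CPM, and Rgs1, a brake on chemokine receptors, at 957 and 1313 CPM. Thinned members held a median of 12 and 16 UMIs of the list, and at least 10 UMIs were held by 61.7% and 74.5% of them.

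Genes that tissue digestion can induce moved with these. In the list of immediate early and heat shock genes 6 of 22 were at least 1.5-fold higher titled Blood and 0 lower, with a median of 0.36. Over all genes tested the shares were 5.90% and 8.50%. Fos was at 838 and 1406 CPM, Atf3 at 66.1 and 181 CPM, Dusp1 at 842 and 1354 CPM and Hspa1a at 347 and 630 CPM, although Hspa1a and its near-copy Hspa1b can share reads. Hspa8 was at 1959 and 1801 CPM and Dnajb1 at 205 and 167 CPM, so the heat shock genes did not all share a direction. The part of preparation in the activation values was not tested. The same list had medians of 0.11, 0.28 and 0.48 in Foxp3-positive, CD8 and Cd4- and Cd8-negative T cells.

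Genes of the receptor and its signalling had a median of 0.25 (0.12 without the shared-barcode members), with 15 of 18 above 0. Past 1.5-fold were 2, both higher: the kinase Zap70 at 202 and 319 CPM and the coreceptor Cd6 at 192 and 323 CPM. The adaptor Lcp2 was at 180.5 and 268 CPM, the kinase Lck at 328 and 395 CPM and the constant chain Trac at 849.8 and 934 CPM. Of 16 costimulatory genes 0 were higher and 2 lower (5.90% and 8.50% over all genes tested). Tnfrsf4 was at 595 and 822 CPM, Cd28 at 598 and 739 CPM and Cd27, a receptor lost on repeated stimulation, at 100.7 and 59.6 CPM. Among 13 checkpoint genes only Nr4a2 was past 1.5-fold. Ctla4 was at 568 and 467 CPM, Pdcd1 at 123 and 136 CPM and Lag3 at 120 and 143 CPM.

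**Figure D4:**
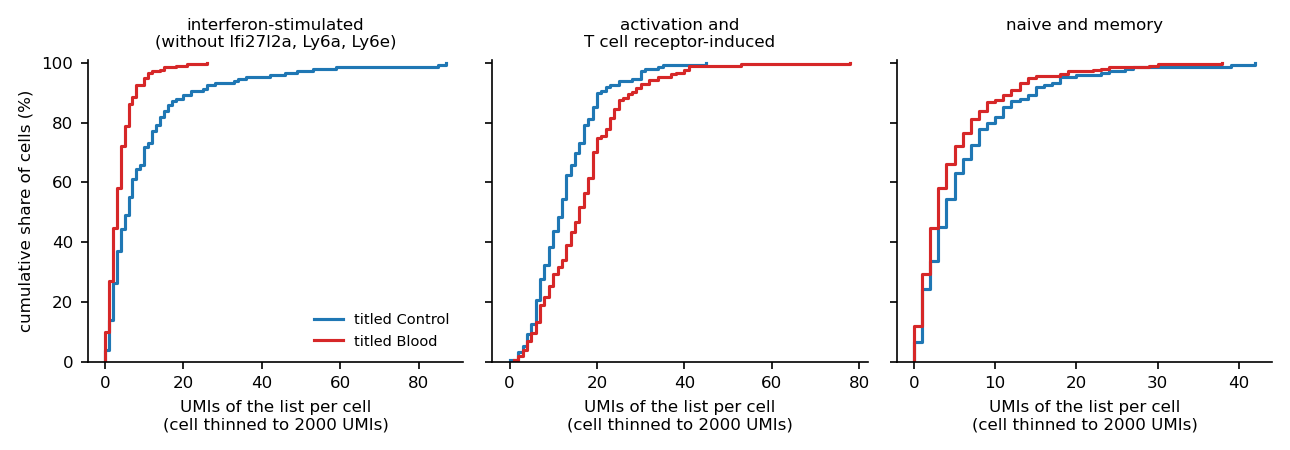
Cumulative share of members (vertical axis, %) by the number of UMIs of a list in the cell (horizontal axis, each cell thinned to 2000 UMIs), for interferon-stimulated genes without Ifi27l2a, Ly6a and Ly6e, activation genes and naive and memory genes; lines are the libraries (blue titled Control, red titled Blood). The interferon line titled Control lies to the right throughout, with 34.2% of cells at 10 or more UMIs against 7.55%, and the activation line titled Blood lies to the right over most of its range.

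Cytokines were spread unevenly among members. Of 23 secreted factors past the filter 10 were at least 1.5-fold higher titled Blood and 3 lower (5.90% and 8.50% over all genes tested). Their median was 0.36 and ranged from 0.043 to 0.81 over 14 alternatives. Of 13 factors, at least 1 was found in 62 of 149 thinned members (41.6%; 33.6% to 49.96%) titled Control and in 110 of 212 (51.9%; 44.9% to 58.8%) titled Blood, and 6.71% and 8.96% held 3 or more. Most factors came from few cells, and a difference in CPM can rest on those. The numbers of cells are therefore given with the levels.

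Of the type 1 factors, Ifng was at 132 CPM (110.1 to 157) titled Control and 361 CPM (328 to 396) titled Blood, and the ratio was 2.73 (2.24 to 3.36). It came from 38 and 66 cells, and the cell with the most held 23 of 126 and 99 of 442. After thinning 14.1% (8.94% to 20.7%) and 20.3% (15.1% to 26.3%) of members had an Ifng UMI, intervals that overlap. The log2 ratio of Ifng was 1.42 over all members, but 0.50 without the members with Il2ra and Ikzf2 UMIs, under 1.5-fold, and 0.68 when cells were thinned before gating. Tnf was at 19.9 and 97.2 CPM in 14 and 48 cells. Csf2, which encodes the growth factor GM-CSF, was at 77.6 CPM (15 cells) and 223 CPM (40 cells), far above the 3.01 and 0.870 CPM of Foxp3-positive cells. Its log2 ratio of 1.46 came to 0.45 in members without C1q UMIs and 0.39 when cells were thinned before gating, both under 1.5-fold. The Th1 list as a whole had a median of 0.34, with 4 of 16 genes higher and 3 lower (5.90% and 8.50% over all genes tested). Its receptor genes split: Il18rap was at 114 and 201 CPM and Cxcr6 at 537 and 733 CPM, while Cxcr3 was at 122 and 72.7 CPM and the chemokine Ccl5 at 209.8 and 107 CPM. Tbx21, the factor of type 1 cells, was at 37.8 and 48.2 CPM.

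Type 2 factors were made by a handful of members in each library. Il13 was at 87.1 CPM in 4 cells and 124 CPM in 16 cells, and Il4 at 39.9 CPM in 8 cells and 75.1 CPM in 8 cells, with at most 2 UMIs of either in all CD8 T cells of a library. Il5 had 0 and 7 UMIs. Gata3, the factor of type 2 cells, was not so restricted, at 161 and 211 CPM and in 31.5% and 32.1% of thinned members. Of the thinned members with a UMI of Il4, Il5 or Il13, 4 of 6 and 7 of 11 also had Areg, which was found in 14 of 143 and 18 of 201 of the others. Csf2 was found in 0 of 6 and 7 of 11 of them. UMIs of Ifng were found in 1 of 6 (16.7%) and 2 of 11 (18.2%) of them, near the 14.1% and 20.3% of all thinned members.

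Interleukin 17 genes were nearly absent. Il17a had 0 and 4 UMIs, the 4 in 1 cell, and Il17f, Il22 and Il23r had 0 in both libraries, which allows up to 3.15 and 2.45 CPM. Of follicular helper genes, Il21 had 4 UMIs in 2 cells and 32 in 13 cells, Bcl6 was at 16.8 and 32.7 CPM, and Cxcr5 had 5 and 0 UMIs. Il10 was at 19.9 and 4.08 CPM in 5 cells each, with 68.4% of the former in 1 cell.

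Chemokines of activated T cells were led by Ccl1, the ligand of Ccr8. It was at 379.8 CPM (342 to 421) in 11 cells titled Control and 952 CPM (898 to 1008) in 41 cells titled Blood, and after thinning in 6.04% (2.80% to 11.2%) and 14.6% (10.2% to 20.1%) of members. Foxp3-positive cells held 0 and 1 Ccl1 UMI, which sets the members apart from them, and CD8 T cells held 197 and 62.6 CPM. In the library titled Control 2 cells held 154 and 114 of 362 UMIs. Ccl3 was at 96.5 and 303 CPM and Ccl4 at 55.6 and 563 CPM, but 86 of 92 Ccl3 UMIs titled Control lay in 1 cell and 350 of 689 Ccl4 UMIs titled Blood in 1 cell. Areg was at 305 CPM in 24 cells and 219 CPM in 35 cells, a log2 ratio of -0.47 that came to -0.10 without the top cell of each library. Ltb, the lymphotoxin beta chain, was found in nearly all members, 146 and 191, at 858 and 743 CPM. Csf1, the growth factor of macrophages, was at 154 CPM in 43 cells and 262 CPM in 103 cells.

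**Figure D5:**
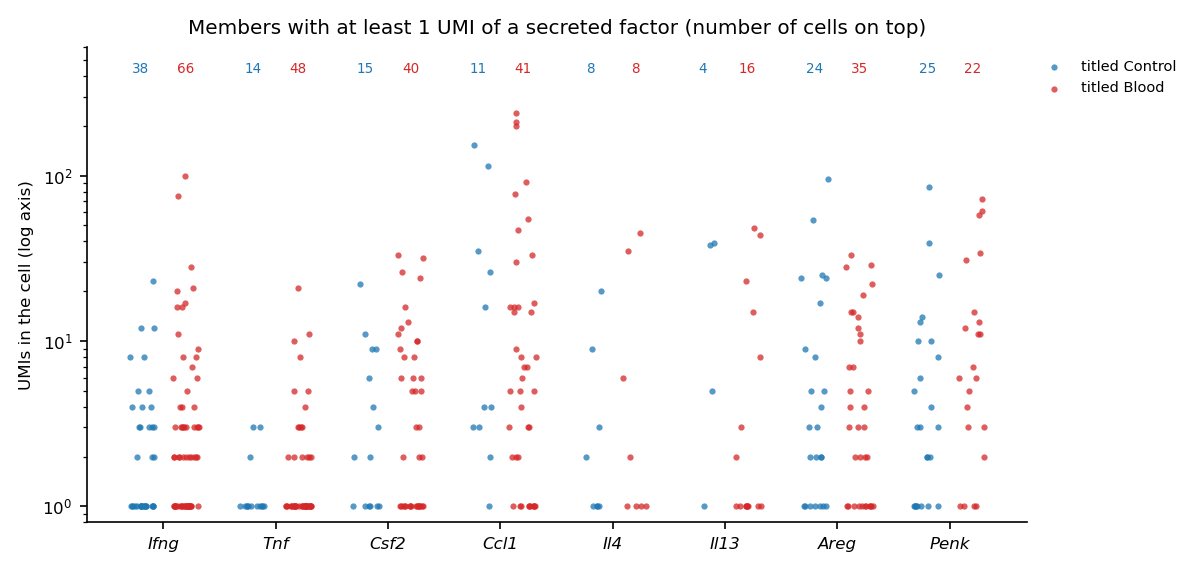
UMIs per cell (vertical axis, log scale) of 8 secreted factors in the members with at least 1 UMI, unthinned; points are cells (blue titled Control, red titled Blood) and the numbers on top count them. For Ccl1, Il4 and Il13 a few cells hold the bulk, while no cell titled Control holds more than 3 UMIs of Tnf, and there are maxima of 238 UMIs for Ccl1 and 99 for Ifng in the library titled Blood.

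Cytotoxic genes were split, with 5 of 10 at least 1.5-fold higher titled Blood and 1 lower (5.90% and 8.50% over all genes tested). Their median of 0.53 ranged from -0.30 to 0.55 over 14 alternatives, 1 of which gave the opposite sign. Gzmb was at 408 CPM (31 cells) titled Control and 143 CPM (34 cells) titled Blood, and much of it lay in the members with Il2ra and Ikzf2 UMIs described above, which held 211 of 389 and 66 of 175 UMIs. Nkg7, a granule membrane protein, was at 508 and 652 CPM, and Klrd1, which encodes CD94, at 280.1 and 319 CPM. Klrd1 was found in 26.2% and 36.8% of thinned members, against 3.27% and 2.60% of Foxp3-positive cells and 59.4% and 65.3% of CD8 T cells. Gzmc had 5 and 56 UMIs, and of 43 Gzmf UMIs titled Blood 40 lay in 1 cell. Granzyme genes of this cluster resemble one another, so their single values are uncertain.

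Naive and memory genes leaned to the library titled Control. Of 15 past the filter 7 were at least 1.5-fold lower titled Blood and 0 higher (8.50% and 5.90% over all genes tested). The median was -0.26 (-0.31 without the shared-barcode members). In CD8 T cells the list had a lower median of -0.72, against -0.06 in Foxp3-positive and 0.07 in Cd4- and Cd8-negative T cells. Ccr7, the receptor that guides cells to lymph nodes, was at 176 CPM in 28 cells and 81.7 CPM in 30 cells, with a ratio of 0.463 (0.358 to 0.597). Tcf7 was at 146 and 74.3 CPM in 55 and 46 cells. S1pr1, the receptor for exit from tissue, was at 138 and 88.2 CPM. Klf2 and Il7r were level, at 732 and 728 CPM and at 238 and 265 CPM. Igfbp4 had the lowest ratio of the list, but 114 of its 118 UMIs titled Control lay in the cell of 91496 UMIs, and its log2 ratio was -2.97 with that cell and 0.79 without the shared-barcode members.

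Migration and residence genes showed no common direction. Of 12 chemokine receptor genes 1 was past 1.5-fold upwards and 3 downwards (5.90% and 8.50% over all genes tested). Cxcr6, which binds the chemokine of tumour macrophages and dendritic cells, was found in 48.3% (40.1% to 56.6%) and 65.6% (58.8% to 71.9%) of thinned members, and in 41.8% and 61.7% of CD8 T cells. Ccr2 was at 142 and 213 CPM and Cxcr4 at 232 and 227 CPM. Among 23 adhesion genes 2 were higher and 2 lower, near the 5.90% and 8.50% over all genes tested. Their median of -0.05 had the opposite sign under 8 of 14 alternatives. Itga1, a collagen-binding integrin chain, was at 20.98 and 37.6 CPM and Itga4 at 78.7 and 36.8 CPM. The values of S100a6, Vim and Anxa1 depended on the cell of 91496 UMIs, with log2 ratios of -0.46, -0.51 and -1.36 that came to 0.32, 0.18 and 0.16 without the shared-barcode members.

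Of 24 cell cycle genes 4 were at least 1.5-fold lower titled Blood and 0 higher (8.50% and 5.90% over all genes tested), with a median of -0.13. Without the shared-barcode members 6 of 23 were lower, the median was -0.42, and Mki67 and Top2a were past 1.5-fold, at log2 ratios of -0.68 and -0.93. Mki67, the proliferation antigen, was at 118 CPM in 27 cells and 91.5 CPM in 31 cells and Top2a at 119 and 71.9 CPM in 32 and 27 cells. Of 21 hypoxia and glycolysis genes 2 were higher and 1 lower (5.90% and 8.50% over all genes tested), with a median of 0.12. The median was 0.46 without the shared-barcode members, where 4 were higher and 0 lower (6.81% and 6.64% over all genes). Thinned members held a median of 11 and 15 UMIs of that list, and 60.4% and 78.3% of them held at least 10. Slc2a1, which encodes a glucose transporter, was at 165 and 57.2 CPM with 79.6% of the former in 1 cell, and its log2 ratio was -1.45 with that cell and 0.58 without the shared-barcode members. Hif1a was at 889.7 and 1030 CPM and Gapdh at 1860.2 and 1885 CPM.

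Furin, a protease that cuts precursors of growth factors and is induced in T cells by receptor signals, was picked after its values were seen. It was at 405 and 1069.9 CPM in 79 and 161 cells, and after thinning in 36.9% (29.2% to 45.2%) and 61.3% (54.4% to 67.9%) of members. No cell held more than 20 of 386 or 47 of 1310 UMIs, so the difference was spread widely.

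Of the 12 genes with the highest ratios most are known from macrophages. Arg1 was at 18.9 and 408 CPM, with 199 of 499 UMIs titled Blood in 1 cell, and macrophage-gated cells held 1074 and 1867 CPM. Pf4 was at 30.4 and 327 CPM, Mmp12 at 4.20 and 90.7 CPM and Hmox1 at 25.2 and 129 CPM. For Ccl24, 227 of 256 UMIs titled Blood lay in 1 cell. Leaving out the 2 and 10 members with at least 0.5% of their UMIs from markers of other classes brought the log2 ratio of Arg1 from 4.11 to 1.53, of Pf4 from 3.23 to 1.64 and of Ccl24 from 4.72 to 0.64. The part of macrophage RNA in the remaining difference was not tested. Tnf, Egr3, Ccl3, Ccl4, Ccl6 and Cxcl3 were also among the 12. Macrophage-gated cells held Ccl4 as well, at 303 and 187 CPM, and Ccl3, at 123 and 94.5 CPM, while their Egr3 was at 2.91 and 3.63 CPM.

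Of the 12 genes with the lowest ratios 9 had most of their UMIs titled Control in 1 cell. Nppb had 125 UMIs in that library, all in 1 cell, and 0 in the other. Tpm2, Tpm1, Cd63, Ctsl, Spp1, Eif4ebp1, Hmgn1 and Igfbp4 were of the same kind, with 106 of 106, 126 of 150, 157 of 179, 235 of 261, 202 of 268, 73 of 93, 57 of 104 and 114 of 118 UMIs in 1 cell. Without the top cell of each gene 5 of the 12 remained past 1.5-fold, among them Ifit3, Ifit1 and Isg15. All 12 genes with the highest ratios remained past it in this setting. Over the other alternatives, the log2 ratio fell as low as 0.046 for Hmox1, 0.31 for Mmp12 and 0.081 for Ccl3, all under 1.5-fold.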

How the data were processed

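Droplet-based single-cell RNA sequencing (10x Genomics single-cell 3' v3, per the labels' protocols) was read for 2 libraries. What the authors deposited are whole, unnormalised UMI counts for each gene in each barcode. The submitters' processing notes name Cell Ranger 3.1.0 and the build mm10, and how barcodes were called is not given in the sources used here. The libraries held 9475 and 12057 barcodes and 115272096 and 115066023 UMIs. Counts come from transcript ends and are not scaled by length, so levels are compared between cells and not between genes.

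Quality limits were 300 or more genes and 500 or more UMIs per cell, with mitochondrial UMIs making up no more than 20%. The comparison gates applied the same Cd3 and C1q limits: at least 1 Foxp3 UMI and no Cd8 for Foxp3-positive cells, at least 1 Cd8 UMI with no Cd4 or Foxp3 for CD8 T cells, and none of these for Cd4- and Cd8-negative cells. Macrophage-gated cells had 0 Cd3 UMIs and at least 0.5% C1q UMIs. UMI counts were summed per library and gate and given as CPM. Intervals are exact Poisson for CPM, Clopper-Pearson for shares and conditional binomial for ratios, at 95%; cells are not replicates, so no p-value was made. Where no UMI was found, the limit is that of 3 counts. Scrublet (scanpy 1.11.5), run per library, marked 1.80% and 2.38% of cells where 7.58% and 9.65% were expected. Doublets are therefore left among the cells, and marked cells were removed only in an alternative. The summing and ratio steps were tested on simulated data.

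Members and the 19 lists were chosen with earlier results of these data known. Genes were named by rule: the markers, per list up to 4 with the highest CPM and up to 3 with the largest ratios, the 12 highest and 12 lowest ratios among genes with at least 50 CPM in a library and 100 UMIs in both, without genes of the mitochondria, ribosome, globins, immunoglobulins, receptor segments or Y chromosome, predicted genes or Xist, and the 10 highest against each T cell gate. Other genes were added as list members after their values were seen. Alternatives were stricter and looser gates, doublet calls, thinning, weighting, scaling, pseudocount and filters. Gene positions are those of GENCODE M21 and promoters those of RefSeq, both on GRCm38. Some genes, and 1 alternative that needs one of them, are not reported here.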

Additional observations from a re-analysis of the deposited data

How the results depend on the processing

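The share of kept cells moved with the gate: 1.28% and 1.51% with at least 2 Cd4 UMIs, 0.646% and 0.792% for members without C1q UMIs, and 1.22% and 1.58% when cells were thinned before gating. The ratio of shares stayed between 1.04 and 1.29. The 464 genes higher titled Blood became 782 without a CPM minimum. The 668 lower genes became 444 in members without C1q UMIs, 391 after thinning, 1522 without a CPM minimum and 377 when the member with the most UMIs of each gene was left out. The split of higher to lower genes was 538 to 480 with at least 2 Cd4 UMIs, 554 to 477 without members with Il2ra and Ikzf2 UMIs, 608 to 570 with cells weighted equally and 663 to 377 without the top member. The medians kept their sign under all 14 alternatives reported for interferon-stimulated (-1.30 to -1.004), activation (0.34 to 0.56), Th1 (0.20 to 0.45) and naive and memory genes (-0.71 to -0.10). Medians of some other lists changed sign, such as that of cytotoxic genes under 1 and of adhesion genes under 8 of the 14.

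Among the genes past 1.5-fold that were recomputed, the sign turned only for genes with most UMIs titled Control in 1 cell. With at least 2 Cd4 UMIs the log2 ratio was 0.84 for Cd63, 1.28 for Ctsl, 0.20 for Eif4ebp1, 0.78 for Igfbp4, 0.28 for Spp1, 0.24 for Tpm1 and 0.82 for Tpm2. Without members with Il2ra and Ikzf2 UMIs it was 0.64 for Cd63, 1.39 for Ctsl, 0.53 for Eif4ebp1, 0.81 for Igfbp4 and 0.64 for Tpm2. In members without C1q UMIs it was 1.11 for Ctsl, 0.72 for Eif4ebp1, 0.91 for Igfbp4, 0.34 for Tpm1 and 0.54 for Tpm2. Without shared barcodes it was 0.52 for Cd63, 1.35 for Ctsl, 0.16 for Eif4ebp1, 0.79 for Igfbp4 and 0.74 for Tpm2. After thinning it was 0.99 for Ctsl, 0.11 for Eif4ebp1, 0.60 for Igfbp4 and 1.08 for Spp1. With cells weighted equally it was 0.39 for Ctsl, 0.047 for Eif4ebp1 and 0.16 for Igfbp4. Without the top member it was 0.45 for Cd63, 1.19 for Ctsl, 0.18 for Eif4ebp1, 0.52 for Igfbp4 and 0.41 for Tpm2. Each of these settings changes which cells enter or how they weigh.

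No paired analysis was possible because each group has 1 library. The alternatives that left out shared barcodes, members with markers of other classes and the top member per gene were chosen after seeing the data. Genes under about 20 UMIs in both libraries together were not compared.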
